A study of Mus musculus with 8 samples.

Results

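Meiotic entry is the step at which spermatogonia leave mitosis and begin meiotic prophase. The 5 genes described here, *Stra8*, *Meiosin*, *Meioc*, *Ythdc2* and *Rbm46*, were taken by symbol as known regulators of that step. The rule uses no measured value, although the set was proposed with earlier results of these data known. They are 5 of the 40840 genes listed in the count tables, and all 5 were among the 19104 genes that passed the filter on low counts. Retinoic acid turns on *Stra8*, and its protein acts with MEIOSIN to switch on genes of meiotic prophase. MEIOC, the RNA helicase YTHDC2 and the RNA-binding protein RBM46 form a complex that acts on RNA and lowers transcripts of the mitotic programme. All 5 are genes of the germ line in the testis, although *Ythdc2* is also expressed in somatic cells.

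The study asked what happens in the male germ line when the splicing factor gene *Tra2b* loses its poison exon, an exon with a premature stop whose inclusion limits Tra2β protein. RNAseq was made from whole testes of 8 independent C57BL/6J mice at 12 days after birth, 4 per genotype, lettered A to D. Wild type mice were *Tra2b*PE fl/+ and carried no Cre. *Tra2b-cPEko* mice were *Tra2b* fl/- with *Vasa*-Cre, so that they carried 1 floxed and 1 deleted allele and lost the exon from the floxed allele only in germ cells. Somatic cells of the *Tra2b-cPEko* testis kept that floxed exon but carried the deleted allele. The most advanced cells expected at this age are in early meiotic prophase, and the exact age of such young testes may bring differences in cell types, per the study's methods. Loss of the exon in germ cells, the deleted allele in somatic cells and the Cre cannot be told apart.

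The reads counted on genes numbered 36757386 in the shallowest library and 59101569 in the deepest. Levels are given as CPM, a gene's counts scaled to the size of its library after TMM normalization. *Tra2b* itself was at 155.8 to 175.6 CPM in wild type and 190.3 to 208.9 CPM in *Tra2b-cPEko* testes (log2 fold change 0.27 ± 0.05 SE, adjusted p = 0.0552, edgeR). The 2 ranges did not overlap. With DESeq2 rather than edgeR, the study reported a significant rise of *Tra2b* mRNA in these testes, and also stronger Tra2β protein staining at this age. The CPM of *Tra2b* is a sum over the whole gene that does not separate the poison exon, so it does not check the deletion. With an adjusted p under 0.05, the threshold for a call, 30 genes were called in all, or 0.157% of those tested, and the unadjusted p was under 0.05 for 15.3%. Whole testes mix cell types, so fewer cells of a type and less RNA per cell cannot be told apart for any gene below.

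Tra2β binds RNA rich in the letters AGAA, so the transcripts of the 5 genes were searched for this motif. In the main annotated transcript of each gene (GENCODE vM39, GRCm39), *Stra8* held 23.3 AGAA per kb, a density at or above that of 99.5% of the 21593 protein-coding transcripts searched. *Meiosin* held 12.7 per kb and exceeded or equalled 92.4% of transcripts. *Ythdc2* held 10.7 and *Rbm46* 10.2 per kb, at 84.7% and 82.2% of transcripts. *Meioc* held 7.35 per kb, close to the median of 7.21. The count is of overlapping matches on the transcript strand, and a match is a description, not a bound site. The stretch of 60 coding bases of *Stra8* with the most matches is shown because it holds 13 AGAA in a single exon. It lies in exon 5 at chr6:34910000-34910059 on the plus strand of GRCm39, and capitals mark the AGAA matches.
Stra8 exon 5: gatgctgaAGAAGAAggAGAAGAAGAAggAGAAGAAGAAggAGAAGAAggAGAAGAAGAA

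The promoters, taken from RefSeq (GRCm38.p6, 250 bases before to 50 after the start) and placed on GRCm39 by an exact match, were searched on both strands for short motifs of factors known at meiotic entry. A promoter was matched for 4 of the 5 genes, with *Meiosin* under its older name *Bhmg1*. The starts are those of RefSeq, and the GENCODE genes begin further upstream. The sequences shown for *Stra8*, *Meioc* and *Rbm46* therefore lie inside the gene bounds given below. AGGTCA, a motif of retinoid receptors and present in 16.3% of 32851 promoters, occurred at 2 positions in *Stra8*, 194 and 38 bases before the start. The E-box CACGTG, which MGA-MAX binds, is in 7.15% of promoters and was found in *Meiosin* and *Rbm46*. CNCCTCAG, a motif described at STRA8-bound promoters, is in 7.94% of promoters and occurred in the same 2 genes. The E2F site GCGGGAA, in 4.60% of promoters, occurred in *Meiosin* and *Meioc*. *Rbm46* held its E-box and CNCCTCAG within 30 bases of each other. The CCAAT box, present in 37.4% of promoters, was the only motif searched that occurred in all 4, at 4 positions in *Stra8*, 2 in *Meioc*, 2 in *Rbm46* and 1 in *Meiosin*. The sequences around the other matches are shown with the matched letters in capitals, 5′ to 3′ on the strand of the gene, because they are where the promoters of the regulators differ. A match of letters does not show binding.
Stra8, chr6:34897677-34897706: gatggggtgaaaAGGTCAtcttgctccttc
Stra8, chr6:34897833-34897862: gcctggggtaccAGGTCAgttttttacctg
Meiosin, chr7:18852423-18852452: cgggagcgggagCACGTGtcggagctgtgg
Meiosin, chr7:18852295-18852324: gggcgtggcctCGCCTCAGgcgctctggtg
Meiosin, chr7:18852322-18852351: tggcaccgcgtgGCGGGAAcgtggaggggg
Meioc, chr11:102556171-102556200: agcttcctttgaGCGGGAAacatcttcagc
Rbm46, chr3:82783797-82783826: tcCACGTGaggcacgctaggCTGAGGCGaa

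None of the 5 regulators was called between the genotypes. The means of all 5 were lower in *Tra2b-cPEko* than in wild type testes, with log2 fold changes from -0.28 to -0.02, and their median was -0.15, against -0.0011 over all genes tested. The unadjusted p was under 0.05 for 0 of the 5, and the genotypes overlapped for all 5, where 8.54% of all genes tested did not overlap. DESeq2 also called 0 of the 5 (2.79% of its genes were called), with an unadjusted p under 0.05 for *Meioc* alone. These p-values do not show that levels were alike, so the 95% interval of each difference is given. Wild type mouse A had the highest value of the 8 mice for each of the 5 genes.

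**Figure D1:**
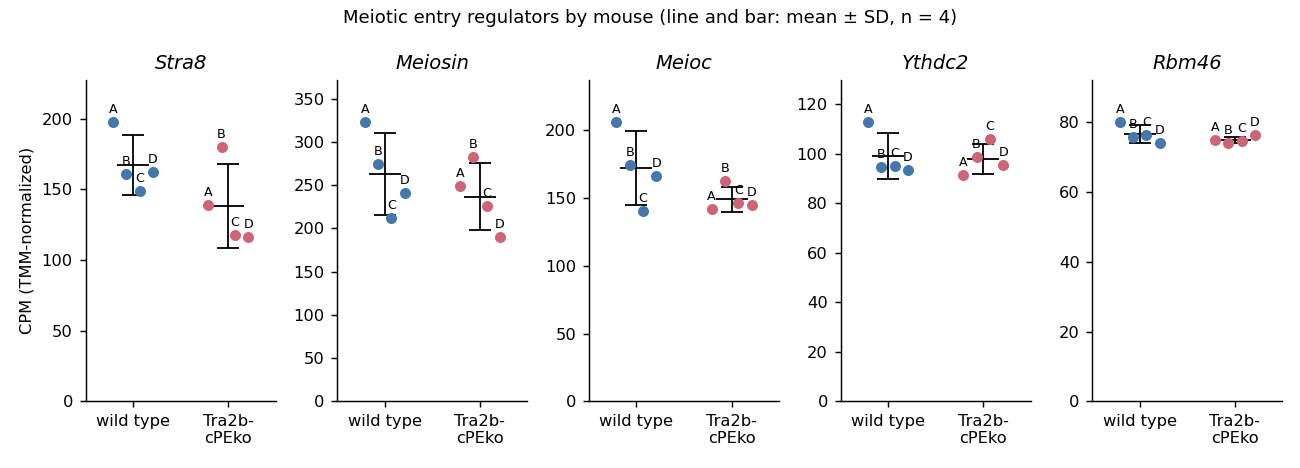
TMM-normalized CPM of the 5 genes (vertical axes, from 0, a scale for each gene) in each of the 4 wild type (blue) and 4 Tra2b-cPEko (red) mice, lettered A to D, with the mean and SD. Wild type A is the highest mouse in every panel, and the genotypes overlap in all 5.

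*Stra8* (chr6:34897098-34916279, plus strand), the retinoic acid target that starts the programme, was at 197.9, 160.6, 148.7 and 162.3 CPM in wild type mice A to D. In *Tra2b-cPEko* mice A to D it was at 138.9, 180.1, 117.7 and 116.2 CPM. Of the *Tra2b-cPEko* mice, A, C and D lay below every wild type mouse, and B lay above wild type B, C and D. Means were 167.4 ± 21.3 and 138.2 ± 29.8 CPM (SD, n = 4), 17.4% lower in *Tra2b-cPEko*. The log2 fold change was -0.28 ± 0.16 (SE, edgeR adjusted p = 0.453), and its 95% interval ran from -0.65 to 0.09, or from 36.2% lower to 6.80% higher. An exact permutation test of log2 CPM (two-sided) gave p = 0.171, where the smallest p that its 70 arrangements allow is 0.0286. Without *Tra2b-cPEko* mouse B the log2 fold change was -0.43 (adjusted p = 0.118, edgeR).

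*Meiosin* (chr7:18832971-18852293, minus strand), which encodes the partner of STRA8 on promoters, had the highest CPM of the 5 genes. It was at 323.3, 274.9, 212.1 and 241.1 CPM in wild type and at 249.0, 282.4, 226.0 and 189.8 CPM in *Tra2b-cPEko* mice A to D. *Tra2b-cPEko* mouse B stood above 3 wild type mice, and the lowest wild type mouse, C, lay below *Tra2b-cPEko* A, B and C. Means were 262.9 ± 47.8 and 236.8 ± 38.9 CPM (SD, n = 4), 9.91% lower in *Tra2b-cPEko*. The log2 fold change was -0.15 ± 0.16 (SE, edgeR adjusted p = 0.700), with a 95% interval from -0.53 to 0.23 and an exact permutation p of 0.457. It was -0.04 without wild type mouse A.

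*Meioc* (chr11:102554542-102573063, plus strand), which encodes the partner that YTHDC2 needs in germ cells, was at 206.3, 174.4, 140.1 and 166.6 CPM in wild type mice A to D. In *Tra2b-cPEko* mice it was at 142.1, 162.4, 146.5 and 144.8 CPM. The *Tra2b-cPEko* mice were all below wild type A, B and D, and all above wild type C. Means were 171.8 ± 27.3 and 148.9 ± 9.15 CPM (SD, n = 4), 13.3% lower in *Tra2b-cPEko*. The log2 fold change was -0.21 ± 0.10 (SE, edgeR adjusted p = 0.380, exact permutation p = 0.200), with a 95% interval from -0.44 to 0.03. Without wild type C it was -0.29 (adjusted p = 0.0763, edgeR), and without wild type A it was -0.11.

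*Ythdc2* (chr18:44960813-45022791, plus strand), the RNA helicase with an m6A-binding domain, was at 113.0, 94.8, 95.2 and 93.3 CPM in wild type and at 91.3, 98.7, 106.1 and 95.6 CPM in *Tra2b-cPEko* mice A to D. Wild type A stood apart from the other wild type mice, which lay among the *Tra2b-cPEko* mice. Means were 99.1 ± 9.30 and 97.9 ± 6.24 CPM (SD, n = 4). The log2 fold change was -0.02 ± 0.07 (SE, edgeR adjusted p = 0.932, exact permutation p = 0.829), with a 95% interval from -0.16 to 0.13. Its sign turned without wild type A, at 0.05, and without *Tra2b-cPEko* A, at 0.01. Part of the first bases of the gene overlaps the antisense gene *Gm58493*, and 273 bases of that transcript match *Ythdc2* exactly.

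*Rbm46* (chr3:82743830-82783834, minus strand), the RNA-binding member of the complex, varied least. It was at 80.1, 75.8, 76.2 and 73.9 CPM in wild type and at 74.8, 74.0, 74.7 and 76.2 CPM in *Tra2b-cPEko* mice A to D. Apart from wild type A, every mouse lay between 73.9 and 76.2 CPM. Means were 76.5 ± 2.61 and 74.9 ± 0.94 CPM (SD, n = 4). The log2 fold change was -0.03 ± 0.04 (SE, edgeR adjusted p = 0.769, exact permutation p = 0.371), with a 95% interval from -0.12 to 0.06, or from 7.94% lower to 4.23% higher. *Meioc* and *Rbm46* each overlap a noncoding gene on the other strand (*Gm73842* and *Rbm46os*), and whether the counting used the strand is not given in the sources used here.

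**Figure D2:**
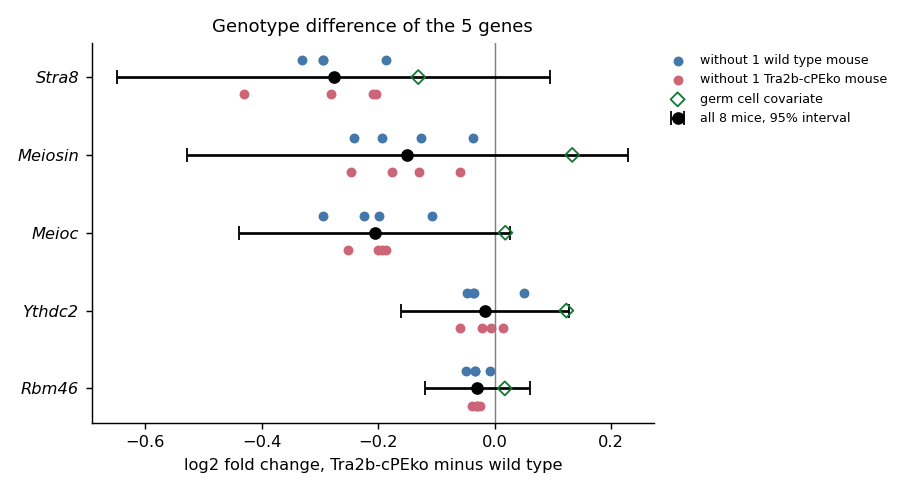
Log2 fold changes of the 5 genes (horizontal axis, Tra2b-cPEko minus wild type). Black points and bars give the edgeR estimate and its 95% interval over 8 mice, coloured points the estimates without 1 mouse, and green diamonds the estimate with the germ cell marker level as a covariate. All 5 intervals include 0, and the interval of Rbm46 is the narrowest.

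The 5 genes differed in how much they varied between mice. The highest mouse exceeded the lowest by 1.703 times for *Stra8*, 1.703 for *Meiosin*, 1.47 for *Meioc*, 1.24 for *Ythdc2* and 1.08 for *Rbm46*. The genes had 2717 to 14289 reads per mouse, and counting noise at the mean count of each gene gives a coefficient of variation between 0.94% (*Meiosin*) and 1.71% (*Rbm46*). The coefficient of variation of *Rbm46* among the *Tra2b-cPEko* mice, 1.25%, was below its counting noise of 1.71%, and that of *Stra8* was 21.5% against 1.20%. Among the 5646 genes that averaged at least 50 CPM, the standard error of the log2 fold change was smaller than that of *Stra8* for 99.4%, smaller than that of *Meiosin* for 99.4% and of *Meioc* for 97.5%. For *Ythdc2* the share was 85.6% and for *Rbm46* 11.3%.

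Levels of different genes can be ordered only per length. In CPM per kb of merged exons, wild type testes had *Stra8* at 92.8 ± 11.8, *Meiosin* at 56.0 ± 10.2, *Meioc* at 36.8 ± 5.84, *Rbm46* at 23.6 ± 0.81 and *Ythdc2* at 10.5 ± 0.99 (SD, n = 4). The same order held in *Tra2b-cPEko* testes, at 76.7 ± 16.5, 50.4 ± 8.30, 31.9 ± 1.96, 23.1 ± 0.29 and 10.4 ± 0.66 CPM per kb, and no neighbours in the order overlapped within a genotype on this length. The order of the transcription partners and the separation of neighbours depended on the length used. Per kb of the main annotated transcript, *Meiosin* was at 138.9 and *Stra8* at 111.4 CPM per kb in wild type, and their ranges, 112.1 to 170.9 and 99.0 to 131.8, overlapped, as they did in *Tra2b-cPEko* testes (100.3 to 149.3 and 77.4 to 119.9). On this length *Meioc* and *Rbm46* also overlapped in wild type, at 30.3 to 44.6 and 29.1 to 31.5 CPM per kb.

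*Stra8*, *Meiosin* and *Meioc* tended to be high or low in the same mice. Over the 8 mice, *Stra8* and *Meiosin* had a Pearson r of 0.86 (exact permutation p = 0.00707, adjusted over 10 pairs 0.0521) and a Spearman rho of 0.83 (exact permutation p = 0.0154, adjusted 0.154). For *Meiosin* and *Meioc* r was 0.84 (exact permutation p = 0.0104, adjusted 0.0521) and rho 0.71 (exact permutation p = 0.0576, adjusted 0.231). For *Stra8* and *Meioc* r was 0.79 (exact permutation p = 0.0174, adjusted 0.0581) and rho 0.69 (exact permutation p = 0.0694, adjusted 0.231). None passed 0.05 after adjustment. As deviations from the mean of each genotype these 3 pairs had r of 0.87, 0.83 and 0.70. Without the 2 mice farthest from the median of the first gene of each pair, r was 0.81, 0.72 and 0.88. The other 7 pairs, each with *Ythdc2* or *Rbm46*, had r between 0.28 and 0.64, with the smallest exact permutation p at 0.0914. Among these, *Meioc* and *Rbm46* had r = 0.59 over 8 mice (exact permutation p = 0.126, adjusted 0.211; rho 0.00) and -0.81 without wild type A and B, so that relation rests on those mice. *Ythdc2* and *Rbm46* had r = 0.64 (exact permutation p = 0.0914, adjusted 0.211, rho 0.36) and -0.01 without wild type A and *Tra2b-cPEko* C. The r of *Stra8* rose without *Tra2b-cPEko* C and D, from 0.28 to 0.88 with *Ythdc2* and from 0.35 to 0.52 with *Rbm46*. That of *Meiosin* fell without wild type A and *Tra2b-cPEko* D, to -0.16 with *Ythdc2* and -0.34 with *Rbm46*. For *Meioc* and *Ythdc2*, r fell from 0.59 to 0.01 without wild type A and B.

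**Figure D3:**
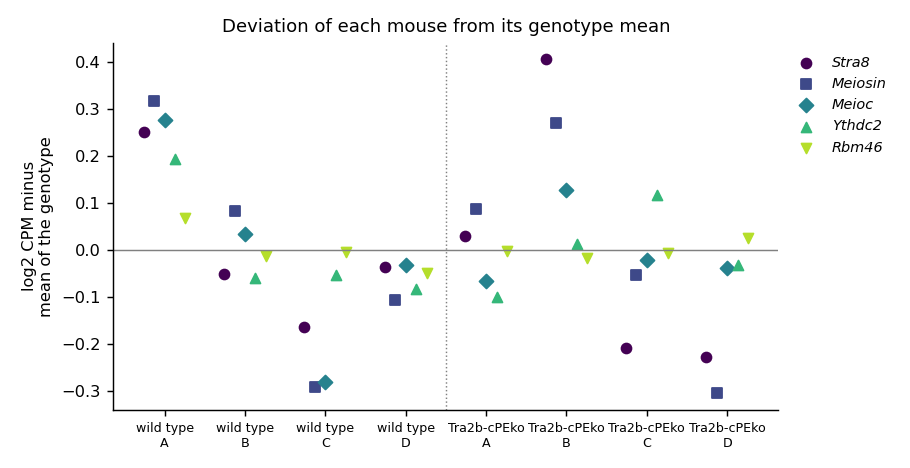
Log2 CPM of each gene minus the mean of the genotype (vertical axis) in each mouse (horizontal axis), with a symbol for each gene. Stra8, Meiosin and Meioc lie together above 0 in wild type A and Tra2b-cPEko B and below 0 in wild type C, and Rbm46 stays within 0.07 of 0 in every mouse.

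The balance between partners was tested within each mouse. The log2 ratio of *Stra8* to *Meiosin* CPM was -0.71, -0.78, -0.51 and -0.57 in wild type and -0.84, -0.65, -0.94 and -0.71 in *Tra2b-cPEko* mice A to D. The genotypes overlapped, with means of -0.64 ± 0.12 and -0.78 ± 0.13 (SD, n = 4) that differed by -0.14 (two-sided exact permutation p = 0.143, adjusted over 4 ratios 0.286). The *Meioc* to *Ythdc2* ratio averaged 0.78 ± 0.15 and 0.60 ± 0.11 (SD, n = 4), a difference of -0.18 (exact permutation p = 0.114, adjusted 0.286). The *Rbm46* to *Meioc* ratio differed by 0.17 (exact permutation p = 0.257, adjusted 0.343) and the *Rbm46* to *Ythdc2* ratio by -0.01 (exact permutation p = 0.829, adjusted 0.829).

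Each gene was also set against the 12287 others that averaged at least 5 CPM, to find those whose log2 CPM followed it most closely over the 8 mice. The 3 nearest to *Stra8* were *Cep68*, *Gins3* and *Steap1*, with r of 0.98, 0.97 and 0.97, and *Meiosin* ranked 141. Nearest to *Meiosin* were *Gm7972*, *Prdm9* and *Ap1m2* (0.98, 0.98 and 0.97). *Prdm9* encodes the histone methyltransferase that places recombination hotspots. *Sfmbt1*, *Zfp672* and *Ippk* were nearest to *Meioc* (0.99, 0.98 and 0.98). *Plekha1*, *Psme4* and *Krit1* were nearest to *Ythdc2* (0.97, 0.95 and 0.93). *2500004C02Rik*, *Ankrd31* and *Orc5* were nearest to *Rbm46* (0.99, 0.95 and 0.93), and *Ankrd31* encodes a factor of meiotic double-strand break formation. These r are over the same 8 libraries and were picked as the highest of many, so they are descriptions only.

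Upstream, none of 19 genes of retinoic acid supply and reception was called by edgeR or DESeq2. The median log2 fold change of the list was -0.07, and an unadjusted p under 0.05 was reached by 1 higher and 3 lower genes. *Aldh1a2*, a retinaldehyde dehydrogenase that makes retinoic acid, was at 153.1 ± 18.2 CPM in wild type and 127.5 ± 11.03 CPM in *Tra2b-cPEko* (SD, n = 4, log2 fold change -0.26, edgeR adjusted p = 0.211). *Cyp26a1*, which degrades retinoic acid, had a log2 fold change of -0.27 (adjusted p = 0.170, edgeR) with no overlap between genotypes. *Aldh1a3* had 0.23 and *Cyp26c1*, at under 1 CPM, 0.42 (adjusted p = 0.261 and 0.564, edgeR).

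Of 10 genes for germ cell competence and timing, 1 was called. *Sohlh1*, a transcription factor of differentiating spermatogonia, fell from 47.5 ± 3.02 to 37.4 ± 1.03 CPM (SD, n = 4), without overlap (log2 fold change -0.34 ± 0.05 SE, edgeR adjusted p = 0.0341). The call was lost in 4 of the 8 fits without 1 mouse (adjusted p = 0.119 without wild type B, and 0.101, 0.108 and 0.148 without *Tra2b-cPEko* A, C and D, edgeR). It was also lost with limma-voom (adjusted p = 0.0583), without edgeR's robust estimation (0.0531) and with the germ cell covariate (0.0769), and kept in the other 6 settings, DESeq2 included. Its partner *Sohlh2* had a log2 fold change of -0.11 (adjusted p = 0.334, edgeR). *Taf4b* and *Nanos3* had 0.02 and 0.05 (adjusted p = 0.918 and 0.911, edgeR). The median of the list was -0.10.

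The PRC1.6 and MGA-MAX proteins hold meiotic genes silent before entry. Of 10 genes for them none was called and 2 had an unadjusted p under 0.05, both lower, with a list median of -0.06. These were *L3mbtl2* (log2 fold change -0.11, edgeR adjusted p = 0.264), without overlap, and *E2f6* (-0.15, edgeR adjusted p = 0.271). *Max* (-0.07) and *Wdr5* (-0.06) were also without overlap (edgeR adjusted p = 0.446 and 0.465). *Ring1* and *Mga* had 0.08 and 0.05 (edgeR adjusted p = 0.629 and 0.726).

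After entry, 37 genes chosen from the meiotic prophase programme were tested and edgeR called none. Whether STRA8 and MEIOSIN act on each of the 37 was not tested. DESeq2 called 4, all lower, with log2 fold changes of -0.36 for *Mei1* (adjusted p = 0.00593), -0.42 for *Mnd1* (0.0208), -0.31 for the cohesin gene *Stag3* (0.0256) and -0.45 for the telomere attachment gene *Majin* (0.0462). The unadjusted edgeR p was under 0.05 for 10 lower and 2 higher genes, and 30 of the 37 had a negative log2 fold change, with a median of -0.11. *Mei1*, needed for double-strand breaks, was at 52.0 ± 4.81 CPM in wild type and 40.5 ± 4.28 CPM in *Tra2b-cPEko* (SD, n = 4, log2 fold change -0.36, edgeR adjusted p = 0.101). *Mnd1*, which aids strand exchange, had -0.42 (edgeR adjusted p = 0.114), and both were without overlap. *Syce2* of the same list was also without overlap (log2 fold change -0.17, edgeR adjusted p = 0.165). Over all genes tested, 8.54% did not overlap. The crossover gene *Msh5* had 0.19 and *Terb1*, whose protein also attaches telomeres, 0.19 (edgeR adjusted p = 0.260 and 0.271).

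The RNA-binding complex is known to lower transcripts of mitotic cyclins. Of 10 cell cycle cyclins (A, B, D and E types) and kinases edgeR called none, with 1 higher and 1 lower at an unadjusted p under 0.05 and a median log2 fold change of -0.04. Their summed level was 847.5 to 874.6 CPM in wild type and 785.9 to 828.9 CPM in *Tra2b-cPEko*, without overlap. The sum includes *Ccnd2*, the most abundant of the 10, with means of 196.5 and 158.5 CPM. *Ccna2* and *Ccnb1* had log2 fold changes of -0.05 and -0.07 (edgeR adjusted p = 0.676 and 0.581), with overlap between genotypes. The share of other gene sets whose sums do not overlap was not computed. Of the 10 genes, 3 had a positive log2 fold change. DESeq2 called *Ccnd2* alone, a D-type cyclin (log2 fold change -0.31, adjusted p = 0.0259). In edgeR *Ccnd2* had -0.31 and *Ccnb2* -0.13 (edgeR adjusted p = 0.159 and 0.426), while *Ccnd3* had 0.12 and *Cdk1* 0.05 (edgeR adjusted p = 0.307 and 0.784). Of 8 genes for m6A writers, m6A readers and the YTHDC2 partner XRN1, none had an unadjusted p under 0.05, and the log2 fold changes lay between -0.08 and 0.04. The outermost were *Mettl3* at -0.08 and *Xrn1* at 0.04 (edgeR adjusted p = 0.518 and 0.828). *Ythdf1* had -0.07 without overlap, and *Ythdc1* had 0.03 (edgeR adjusted p = 0.384 and 0.731).

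**Figure D4:**
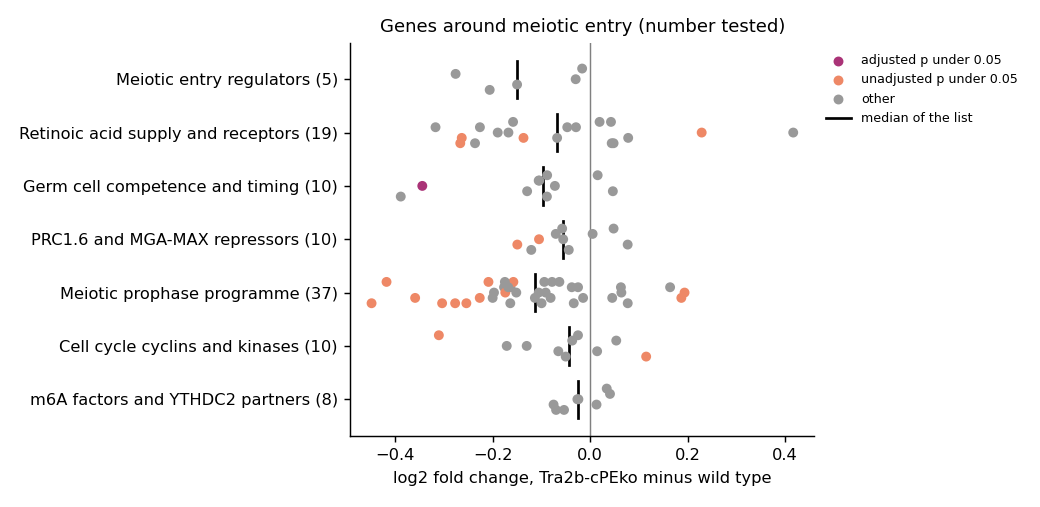
Log2 fold changes (horizontal axis, Tra2b-cPEko minus wild type) of each gene tested in 7 lists around meiotic entry, with the number tested in brackets and the median as a black line. The only gene with an edgeR adjusted p under 0.05 is Sohlh1, and the medians lie between -0.15 and -0.03.

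The levels of cell type markers are given beside these results. All 10 germ cell markers had a lower mean in *Tra2b-cPEko*, 6 of them with an unadjusted p under 0.05 and 0 called, with a median log2 fold change of -0.14. Their summed level was 1649 to 1955 CPM in wild type and 1606 to 1665 CPM in *Tra2b-cPEko* mice, and none was at 0. Their mean log2 CPM, however, did not overlap, at 6.669 to 6.921 in wild type and 6.628 to 6.666 in *Tra2b-cPEko*, with wild type A the highest. All 7 differentiating spermatogonia markers, the stage before entry, had a lower mean. Of these *Sohlh1* was called and 1 other, *Ccnd2* of the cyclin list, had an unadjusted p under 0.05. Their sums of 752.0 to 871.4 and 686.6 to 744.9 CPM, which include *Ccnd2*, did not overlap. Of 9 pachytene markers tested, 8 had a negative log2 fold change, with a median of -0.26. The 2 with an unadjusted p under 0.05, both lower, were at low levels. These were *Acr*, at means of 1.40 and 0.44 CPM in wild type and *Tra2b-cPEko*, and *Spata16*, at 0.55 and 0.12 CPM. The most abundant, *Hspa2* and *Ybx2*, had -0.06 and -0.26 (edgeR adjusted p = 0.930 and 0.710). *Piwil1*, at 28.7 ± 19.1 and 11.3 ± 2.19 CPM in wild type and *Tra2b-cPEko* (SD, n = 4), had -1.33 (edgeR adjusted p = 0.332). *Ldhc*, at means of 15.4 and 6.73 CPM, had -1.18 (edgeR adjusted p = 0.528). Summed levels of the 9 markers were 432.7, 468.6, 228.0 and 277.1 CPM in wild type mice A to D. In *Tra2b-cPEko* mice they were 249.6 to 324.7 CPM. All 7 macrophage markers had a higher mean, 4 with an unadjusted p under 0.05, at 122.1 to 156.4 and 153.3 to 185.5 CPM in sum. Of 7 Leydig cell markers 5 had a higher mean, with a median log2 fold change of 0.40, 1 higher and 1 lower at an unadjusted p under 0.05, and sums of 393.4 to 467.3 and 414.3 to 656.2 CPM. The undifferentiated spermatogonia, Sertoli, peritubular and endothelial lists had medians between -0.02 and 0.07 and 0 genes called. An unadjusted p under 0.05 was reached by 2 lower undifferentiated, 1 lower Sertoli, 1 higher peritubular and 0 endothelial markers. DESeq2 called *Sohlh1*, *Ccnd2*, the pachytene marker *Spata16*, the Leydig marker *Lhcgr* and the macrophage marker *Csf1r* among the marker lists. With the mean of the 10 germ cell markers as a covariate, a value that itself separates the genotypes, the log2 fold change was -0.13 for *Stra8*, 0.13 for *Meiosin*, 0.02 for *Meioc*, 0.12 for *Ythdc2* and 0.02 for *Rbm46*, with adjusted p (edgeR) between 0.584 and 0.967. The part of cell composition in the differences was not tested beyond these values.

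**Figure D5:**
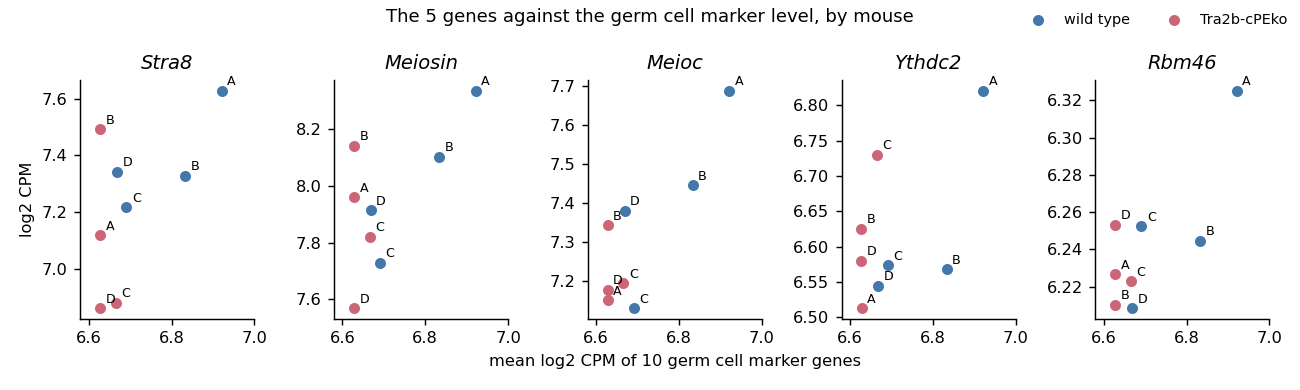
Log2 CPM of each of the 5 genes (vertical axes) against the mean log2 CPM of 10 germ cell marker genes (horizontal axis) in 4 wild type (blue) and 4 Tra2b-cPEko (red) mice, lettered A to D. Wild type A is highest on both axes in every panel, and the Tra2b-cPEko mice lie at the low end of the marker level.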

How the data were processed

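The authors deposited raw counts of reads per gene, 1 table per mouse, without normalization and ending in 5 summary lines, which were left out. Reads on genes were 66.4% to 69.0% of each table. The submitters' processing notes name HISAT2 2.2.1, SAMtools 1.7.1, HTSeq 2.0.2 and deepTools 3.5.1 with GRCm39, while the paper's methods name Salmon and DESeq2. Pairs of libraries within a genotype were no copies of each other, with a chi-square of 6.24 to 19.1 for each degree of freedom.

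Counts were tested in R 4.3.3 with edgeR 4.0.16 (filterByExpr with a least count of 10 and a least total of 15, TMM, robust quasi-likelihood fit, genotype as the only term) over 19104 genes, with Benjamini-Hochberg adjustment. Log2 CPM used a prior count of 2. Permutation tests are two-sided and exact. Alternatives were DESeq2 1.42.0, limma-voom (limma 3.58.1), other factors and filters, no robust estimation, a replicate block, a germ cell covariate and fits without each mouse. The tests were tested on simulated data.

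The members and gene lists were chosen with earlier results of these data known. Besides the 5 genes, those named are the 3 most correlated with each, and from each list the called genes and the 2 higher and 2 lower genes with the smallest p. Also named are *Ccna2*, *Ccnb1*, other genes without overlap in the repressor and prophase lists, and pachytene markers with high levels or large fold changes. Of 177 list entries, 3 were matched through RefSeq synonyms. Positions are from GENCODE vM39, and copies were searched with BLAST+ 2.17.0 at 95% identity. Splicing was not analysed here.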

Additional observations from a re-analysis of the deposited data

Results flagged for a closer look

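Single mice stood apart from the other 3 of their group by Dixon's test in 3 of the 18 groups of 4 values examined (5 genes and 4 ratios in both genotypes), where chance flags about 1 group in 20. The groups are not independent, because the ratios are built from the same 5 genes. All 3 flags involve *Ythdc2*, so their number cannot be set against that rate. *Ythdc2* was at 113.0 CPM in wild type A, against 93.3 to 95.2 CPM in the other wild type mice. The log2 ratio of *Rbm46* to *Ythdc2* was -0.50 in wild type A, against -0.34 to -0.32 in the others. The log2 ratio of *Meioc* to *Ythdc2* was 0.56 in wild type C, against 0.84 to 0.88 in the others.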

How the results depend on the processing

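No regulator was called under any of the 17 alternatives. Over all genes, 30 were called, against 507 with DESeq2, 123 with no filter on low counts, 58 with upper-quartile factors, 14 with a mean count of at least 50, 11 with limma-voom, 12 without robust estimation, 67 with the replicate block, 2 with the germ cell covariate, and 3 (without *Tra2b-cPEko* D) to 84 (without wild type C) in fits without 1 mouse. Deviations of same-lettered mice correlated at -0.14 to 0.12, and whether the letters A to D mark a litter or batch is not given. The replicate block gave *Stra8* a log2 fold change of -0.29 ± 0.12 (SE, edgeR adjusted p = 0.346). For *Meiosin* it gave -0.15 ± 0.09 (SE, edgeR adjusted p = 0.473), against an SE of 0.16 without the block.

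Signs turned with the germ cell covariate for *Meiosin* (0.13), *Meioc* (0.018), *Ythdc2* (0.12) and *Rbm46* (0.017), and for *Ythdc2* with upper-quartile factors (0.0019). Without 1 mouse the log2 fold changes ran from -0.43 to -0.19 for *Stra8*, -0.25 to -0.04 for *Meiosin*, -0.29 to -0.11 for *Meioc*, -0.060 to 0.051 for *Ythdc2* and -0.050 to -0.0081 for *Rbm46*, with a smallest adjusted p of 0.0763 (edgeR). The *Rbm46* to *Ythdc2* difference ran from -0.057 to 0.026, and the other 3 ratios kept their sign. The causes were not tested. Counting noise was below the spread between mice except for *Rbm46* in *Tra2b-cPEko*.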
